A study of Mus musculus with 32 samples.

Results

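The choroid plexus epithelium is marked by Ttr, Folr1, Kl, Clic6, Aqp1, Enpp2, Slc4a5, Otx2, Prlr and Sostdc1, and these 10 genes were followed sample by sample through the hippocampus, meninges and sorted meningeal lymphatic endothelial cells (mLECs) of mice. They were chosen by symbol, though with earlier results of these data known, and all 10 were present among the 22337 genes of both expression tables. RNA-seq was available for 32 samples: 12 of hippocampus (4 from each group), 10 of meninges (4 WT, 3 untreated 5xFAD and 3 light-treated 5xFAD) and 10 of mLECs (4, 3 and 3 in the same order). The study asked how transcranial near-infrared light acts on meningeal lymphatic vessels and on the brain of mice with amyloid disease. WT mice were transgene-free littermates of the 5xFAD mice, and the untreated 5xFAD group carried the same transgenes as the light-treated group. All were male, 6 months old and on the C57BL/6J background. The transgenes of 5xFAD mice are expressed under Thy1 regulatory sequence, which is active mainly in neurons. Light-treated 5xFAD mice received repeated laser sessions through the scalp under anesthesia, and untreated mice were handled in the same way under room lighting. The mLECs were sorted from the meninges as living CD45-negative cells positive for CD31 and podoplanin. Each sample came from 1 mouse.

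The choroid plexus is a fold of vascular tissue that hangs into each brain ventricle and is covered by a single sheet of cuboidal epithelium. This epithelium secretes cerebrospinal fluid, moves ions and water from blood to ventricle, and supplies the fluid with carrier proteins, hormones and vitamins. Plexus lies in the lateral ventricle next to the hippocampus and can come away with tissue dissected around it, and in bulk tissue fewer cells of a type cannot be told apart from less RNA per cell.

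Start-site windows of 300 bases (250 before and 50 after a start site, RefSeq on GRCm38.p6) were taken for 5 of the 10 genes. These were Kl, Aqp1, Slc4a5, Otx2 and Prlr, with 10 windows in all. No window was available for Folr1, Clic6, Enpp2 and Sostdc1, and Ttr was left out of the search. The letters TAATCC, bound by OTX factors, and GTAAACA, bound by forkhead factors, were searched on both strands, and the 2 motifs share no overlapping match in these windows. Of the windows searched, only those with a match are shown. They are given because these genes varied together with Ttr across the hippocampus samples and Otx2 encodes an OTX factor itself. Capitals mark the match, which in both windows lies on the opposite strand and so reads as the reverse complement, and each sequence is written 5′ to 3′ on the strand of its gene.
Otx2, start-site window at chr14:48665060-48665359 (minus strand), match to TAATCC: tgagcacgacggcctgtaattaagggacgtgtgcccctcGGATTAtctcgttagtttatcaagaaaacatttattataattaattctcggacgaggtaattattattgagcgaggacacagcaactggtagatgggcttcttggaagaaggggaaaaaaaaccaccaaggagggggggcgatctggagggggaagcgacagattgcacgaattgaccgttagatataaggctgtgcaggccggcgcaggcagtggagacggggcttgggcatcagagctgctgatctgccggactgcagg
Prlr, start-site window at chr15:10223656-10223955 (plus strand), match to GTAAACA: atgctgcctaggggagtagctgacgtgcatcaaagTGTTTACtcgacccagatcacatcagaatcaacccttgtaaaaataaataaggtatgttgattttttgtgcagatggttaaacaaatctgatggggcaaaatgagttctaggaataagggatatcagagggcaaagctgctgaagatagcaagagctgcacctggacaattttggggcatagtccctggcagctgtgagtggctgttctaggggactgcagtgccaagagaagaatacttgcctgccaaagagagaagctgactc
Over all 32851 windows of that length, 7.06% held TAATCC and 3.65% held GTAAACA, so 1 window of 10 with each motif describes the letters and no more. In GENCODE vM21 on GRCm38, Otx2 spans bases 48657677 to 48673819 of chromosome 14 on the minus strand and Prlr spans bases 10177238 to 10349180 of chromosome 15 on the plus strand, so both windows fall within the gene bodies.

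The libraries of hippocampus held between 13952825 and 23856476 counts each, those of meninges between 6601143 and 14708202, and those of mLECs between 14231415 and 24207326. The labelled tissues carried their defining markers in hippocampus and meninges: Camk2a, a kinase of excitatory neurons, lay between 1357 and 2406 FPKM (fragments scaled by transcript length and library size) in hippocampus and between 3.06 and 47.0 FPKM in meninges, and Dcn, a proteoglycan of meningeal fibroblasts, lay between 375 and 1257 FPKM in meninges and between 2.77 and 93.3 FPKM in hippocampus. In mLECs the endothelial gene Pecam1 lay between 189 and 398 FPKM, but Prox1, the transcription factor that defines lymphatic endothelium, was listed at 0 in 3 of 10 samples, Lyve1 in 2 and Pdpn, the gene of the sort marker podoplanin, in 4.

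In hippocampus the choroid plexus genes varied widely between mice of the same group. Ttr, the carrier of thyroxine and retinol-binding protein and the most abundant of the 10, stood at 104, 2739.8, 392 and 31.7 FPKM in WT replicates 1 to 4. In untreated 5xFAD mice it stood at 3136, 2877, 677 and 197 FPKM, and in light-treated 5xFAD mice at 122, 108, 56.8 and 233 FPKM. WT replicate 2 and untreated 5xFAD replicates 1 and 2 stood far above all others, and no light-treated sample reached that range. The highest and lowest samples were 98.8-fold apart, and Ttr took from 0.00383% (95% Wilson interval 0.00356% to 0.00412%) to 0.378% (0.376% to 0.381%) of a sample's counts, where intervals cover counting error only.

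The other secreted products followed the same samples. Enpp2, which encodes autotaxin, the enzyme that makes lysophosphatidic acid, measured 63.9, 326, 105 and 42.0 FPKM in WT, 239, 239.6, 134 and 66.6 FPKM in untreated 5xFAD and 40.7, 49.0, 40.0 and 74.5 FPKM in light-treated 5xFAD hippocampus. Sostdc1, a secreted antagonist of BMP and Wnt signals, measured 1.62, 11.8, 5.21 and 2.90 FPKM in WT. It measured 10.3, 13.4, 3.17 and 3.19 FPKM in untreated and 1.72 to 2.99 FPKM in light-treated samples. All its light-treated values lay below all untreated ones, as for 3.98% of 12981 tested genes. Kl, which encodes the anti-ageing hormone Klotho and is also made by neurons, was the steadiest, with a lowest value of 2.71 FPKM and a highest of 13.3 FPKM, 4.90-fold apart.

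Among the receptors, Folr1, the folate receptor that carries folate into the ventricle, measured 2.27, 27.3, 7.19 and 0.94 FPKM in WT, 33.0, 23.2, 7.33 and 4.28 FPKM in untreated 5xFAD and 2.54, 0.73, 1.95 and 3.39 FPKM in light-treated 5xFAD hippocampus. Prlr, the prolactin receptor, measured 1.15, 9.30, 1.80 and 1.02 FPKM in WT, 9.99, 3.70, 1.60 and 1.59 FPKM in untreated and 0.42, 1.15, 0.44 and 1.45 FPKM in light-treated samples. For both receptors every light-treated sample lay below every untreated 5xFAD sample, as for 3.98% of 12981 tested genes, while WT overlapped with each.

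The transport genes were low. Aqp1, the water channel of the apical membrane, reached 6.22 FPKM in WT replicate 2 and 5.57 and 3.75 FPKM in untreated replicates 1 and 2, and lay between 0.10 and 0.53 FPKM in the 9 other samples. Slc4a5, a sodium bicarbonate cotransporter, reached 1.16, 0.82 and 0.65 FPKM in those same 3 samples, was at most 0.29 FPKM elsewhere and was at 0 in WT replicate 4, which left it below the filter on low values in hippocampus (at least 1 FPKM in at least 3 samples). Clic6, an intracellular chloride channel protein, ranged from 0.24 to 3.87 FPKM. Otx2, the homeobox factor that sets up and maintains the choroid plexus, ranged from 0.29 FPKM in WT replicate 4 to 4.45 FPKM in WT replicate 2, and untreated replicate 3 was second at 4.03 FPKM.

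**Figure D1:**
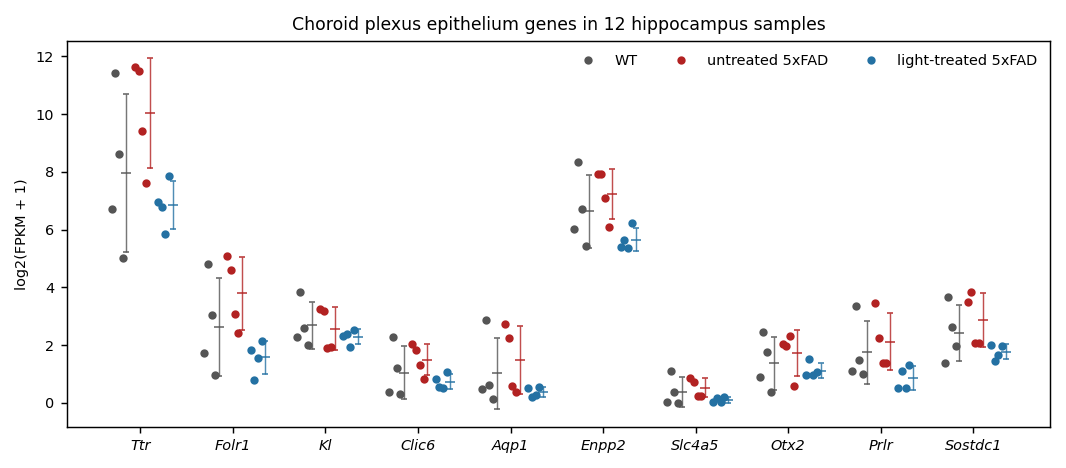
The 10 choroid plexus genes in the 12 hippocampus samples as log2(FPKM + 1), with 1 point for each sample and a bar for the mean ± SD of each group (n = 4). WT replicate 2 and untreated 5xFAD replicates 1 and 2 form the top of most columns, and the light-treated samples lie low and close together.

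The members varied together across hippocampus samples. Pearson's r of log2(FPKM + 1) with Ttr over the 12 samples ran from 0.81 for Kl to 0.97 for Folr1, Clic6 and Enpp2. All 9 had a permutation p under 0.05 with a positive sign (100000 resamples, two-sided, unadjusted), against 3.78% of the 12981 genes compared, and 5 of the 9, Folr1, Clic6, Aqp1, Enpp2 and Slc4a5, kept an adjusted p under 0.05 over all of these genes, against 0.1% of them. Slc4a5 was kept here although it was below the filter that the other genes had to pass, with a median of 0.16 FPKM. Aqp1 passed that filter only through the 3 samples of highest Ttr, which favours a high r by construction. For Folr1 the permutation p was 2e-05 (adjusted 0.0288) and Spearman's rho was 0.94 (permutation p 3e-05, adjusted 0.0974). For Kl the values were r = 0.81 (permutation p 0.00177, adjusted 0.277) and rho = 0.62 (permutation p 0.0338, adjusted 0.456). No member kept an adjusted p under 0.05 by rank, the lowest being 0.0649 for Clic6.

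The relation held inside the groups: with each value centred on the mean of its group, r lay between 0.85 and 0.98. Without the 2 samples farthest from the median of Ttr it lay between 0.71 and 0.96 over 10 samples. Without the 3 samples of highest Ttr, a step added after the data were seen, 6 of 9 members still had a permutation p under 0.05 and r lay between 0.20 and 0.93 over 9 samples. For Kl, Prlr and Sostdc1, r was then 0.20, 0.65 and 0.52 (permutation p = 0.59, 0.0574 and 0.147). Taking out the highest values of Ttr narrows its range, which lowers r by construction.

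Genes most like Ttr across the hippocampus samples, members aside, were Kcnj13 (r = 0.976), a potassium channel of the plexus epithelium, Ecrg4 (0.960), Steap1 (0.956), Kcne2 (0.952), a potassium channel subunit, Wfdc2 (0.943), Calml4 (0.942), Ddx18 (0.927), Col8a1 (0.922), Slc16a8 (0.921), a lactate transporter, and Msx1 (0.919), with n = 12. Kcnj13 ranged from 0.60 to 35.5 FPKM and Ecrg4 from 2.09 to 70.4 FPKM, whereas Ddx18, an RNA helicase, ranged only from 8.0 to 11.9 FPKM. In the list of other choroid plexus genes the median r with Ttr was 0.87 over 33 genes, against 0.56 over 14 ependymal genes, 0.52 over 13 leptomeningeal fibroblast genes, -0.26 over 9 hippocampal neuron genes and 0.00 over all genes. These r describe samples that share libraries and dissections.

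**Figure D2:**
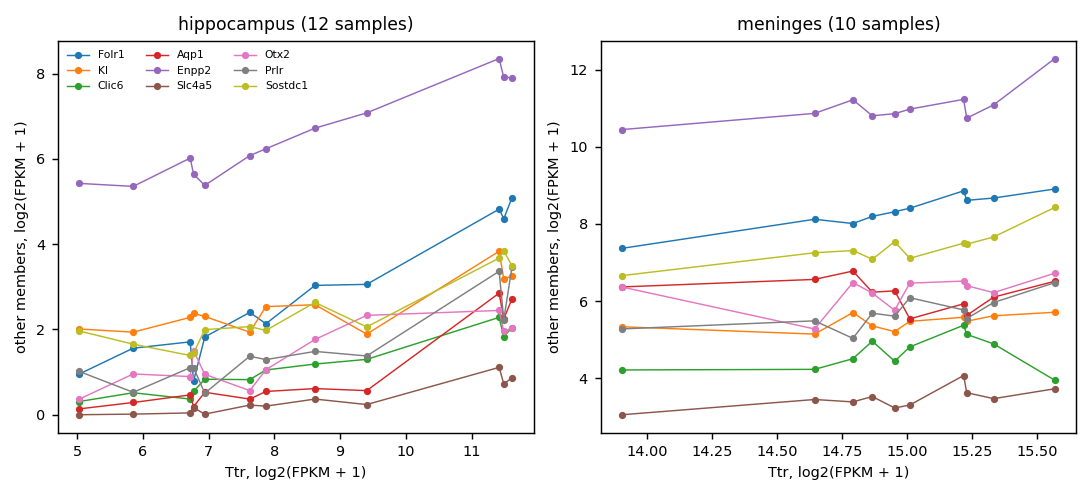
Level of each of the other 9 members (vertical axis) against Ttr (horizontal axis), both as log2(FPKM + 1), in 12 hippocampus samples (left) and 10 meninges samples (right), with lines joining the samples in order of Ttr. In hippocampus the lines climb together over a wide range of Ttr, with r from 0.81 to 0.97, and in meninges the range of Ttr is narrow and r runs from -0.30 to 0.97.

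Relative to Ttr, the members were not in a fixed proportion in hippocampus. The level of Enpp2 was 132% of the level of Ttr in WT replicate 4, the sample with the lowest Ttr, and 11.9%, 7.64% and 8.33% of it in the 3 samples of highest Ttr, where the meninges gave 4.46% to 10.3% (FPKM over FPKM). Kl stood at 9.55% of Ttr in WT replicate 4 and at 0.484%, 0.272% and 0.281% in the 3 high samples, against 0.106% to 0.256% in meninges. Folr1 moved least against Ttr, between 0.675% and 3.44% in hippocampus and between 0.905% and 1.22% in meninges.

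Comparing untreated 5xFAD with WT hippocampus asks whether the disease model shifts these genes. None of the 9 members that passed the filter was called by edgeR's quasi-likelihood test (adjusted p under 0.05 and at least 2-fold), where 4.28% of all 12981 tested genes were called, and none had an unadjusted p under 0.05 (24% of all genes). DESeq2 and limma called none either. Log2 fold changes were positive for 8 of 9, with a median of 0.53 against 0.01 over all genes. Ttr was 1.12 higher on the log2 scale (SE 1.08, adjusted p = 0.567), and Kl was the lowest at -0.15 (SE 0.46). Both groups hold samples of high Ttr, and their values overlapped for all 10 genes. Leaving out WT replicate 2, the high WT sample, gave 1 member called, Prlr, at a log2 fold change of 1.89 (adjusted p = 0.0392).

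Light-treated and untreated 5xFAD hippocampus were compared to see what light changes in the disease model, and these comparisons share the untreated samples with the one before. No member was called by edgeR, where 0.27% of all genes were, but all 9 tested members had a negative log2 fold change. Of the 9, 6 had an unadjusted p under 0.05 with a lower value, against 9.81% of all genes. Among these 6, Aqp1 passed the filter on low values only through WT replicate 2 and untreated replicates 1 and 2. DESeq2 called 2, Ttr (adjusted p = 0.0256) and Folr1 (adjusted p = 0.0355), and limma called none. The median log2 fold change of the 9 was -1.77, beside -0.02 over all genes. The members varied together across the hippocampus samples, so counts and medians over them, here and below, do not stand for independent observations.

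Ttr had a log2 fold change of -3.74 (SE 1.19, 13.4-fold lower, adjusted p = 0.139), with means of 6.86 ± 0.83 and 10.03 ± 1.90 (SD, n = 4 each) on the log2(FPKM + 1) scale and an exact permutation p of 0.0571. The 1 overlap was light-treated replicate 4, at 233 FPKM, above untreated replicate 4, at 197 FPKM. Folr1 had a log2 fold change of -3.31 (SE 0.99, adjusted p = 0.127), Aqp1 of -3.04 (SE 1.18, adjusted p = 0.197), Prlr of -1.96 (SE 0.63, adjusted p = 0.144), Enpp2 of -1.77 (SE 0.56, adjusted p = 0.140), Sostdc1 of -1.63 (SE 0.59, adjusted p = 0.169), Clic6 of -1.55 (SE 0.74, adjusted p = 0.282), Otx2 of -0.99 (SE 0.66, adjusted p = 0.439) and Kl of -0.51 (SE 0.46, adjusted p = 0.581).

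For 3 of the 9 tested members, Folr1, Prlr and Sostdc1, every light-treated sample lay below every untreated sample, where 3.98% of tested genes did so. The same held for Slc4a5, which was below the filter, and the exact two-sided permutation p of each of these genes was 0.0286, the smallest that 4 against 4 samples allow. Leaving out single samples kept Ttr between -4.21 and -3.26 on the log2 scale. Without the 3 samples of highest Ttr, a choice made on the measured level that lowers the difference by construction and leaves 2 untreated mice, no member was called, Ttr stood at -1.75 on the log2 scale (adjusted p = 0.306) and Kl turned to 0.52.

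**Figure D3:**
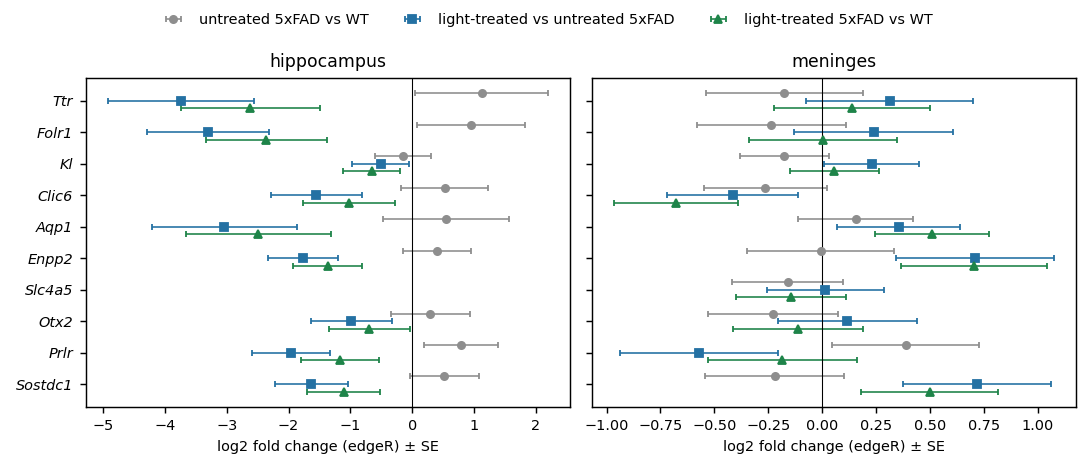
Log2 fold changes from edgeR with their SE (horizontal axis) for each member in hippocampus (left) and meninges (right), for the 3 comparisons of groups. Slc4a5 has no value in hippocampus, where it was below the filter. In hippocampus all 9 members are below 0 in both comparisons of light-treated mice, and in meninges all values lie between -0.68 and 0.72, on an axis of narrower range. None passed the threshold by edgeR.

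Against WT, light-treated hippocampus again gave no called member by edgeR, DESeq2 or limma (2.36% of all genes were called by edgeR). All 9 log2 fold changes were negative, with a median of -1.16 against 0.00 over all genes, and 3 of 9, Ttr, Folr1 and Enpp2, had an unadjusted p under 0.05 with a lower value (6.28% of all genes). Ttr stood at -2.62 (SE 1.13, adjusted p = 0.260). All 10 genes overlapped between the groups, and 3 of 4 WT samples had Ttr between 31.7 and 392 FPKM, a range that holds all 4 light-treated samples.

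Other gene lists moved in the same comparisons, and their part in the result was not tested. Between light-treated and untreated 5xFAD hippocampus, 29 of 33 other choroid plexus genes had negative log2 fold changes (median -1.42). None was called, where 0.27% of all genes were. An unadjusted p under 0.05 in either direction was reached by 25 of the 33. Over all genes only the share with a lower value is given, 9.81%, so these figures are not matched. All 14 ependymal genes were negative too (median -0.90, none called), as were all 13 leptomeningeal fibroblast genes (median -1.42), of which 2 fell past the threshold: Crabp2, which binds retinoic acid, by 2.53 on the log2 scale (adjusted p = 0.0402), and Fmod, a collagen-binding proteoglycan, by 2.13 (adjusted p = 0.0483). The summed level of the 15 listed fibroblast genes was 67.8 to 155 FPKM in untreated 5xFAD, 43.4 to 56.6 FPKM in light-treated 5xFAD and 45.5 to 87.6 FPKM in WT hippocampus. For the 16 ependymal genes the sums were 379 to 818, 229 to 551 and 536 to 636 FPKM in the same order, with overlap between the 5xFAD groups. The other lists lay nearer to 0, with none called: medians were -0.20 for 15 ion and water transporters, -0.12 for 10 oligodendrocyte genes, 0.19 for 9 hippocampal neuron genes, 0.76 for 7 thalamus and habenula genes, -0.54 for 2 pineal genes, -0.24 for 4 blood cell genes, 0.01 for 6 blood endothelial genes, and -0.17 each for 6 lymphatic endothelial and 5 leukocyte genes. The thalamus and habenula genes stood apart in 1 library, light-treated replicate 2, with a sum of 319 FPKM over 9 genes, whereas the other light-treated samples stood at 46.1, 62.7 and 47.4 FPKM, below all untreated samples (63.6 to 132 FPKM).

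The fibroblast sum followed Ttr in some hippocampus samples and not in others. In WT both were highest in replicate 2 (87.6 FPKM for the fibroblast genes). Untreated 5xFAD replicate 2 was high in Ttr, but its fibroblast sum of 134 FPKM stood at the median of its group, 134 FPKM. The fibroblast sum was highest of all in untreated 5xFAD replicate 4 (155 FPKM), where Ttr was the lowest of its group, and was 67.8 FPKM in untreated replicate 1, where Ttr was the highest. Between untreated 5xFAD and WT, where 4.28% of all 12981 genes were called, 5 of 13 fibroblast genes rose past the threshold, among them Crabp2 (log2 fold change 2.30), Fmod (2.20), Col1a2 (1.83) and Slc13a3 (1.01), as did 5 of 5 leukocyte genes, led by Lyz2 (3.56), a lysozyme of macrophages. In the choroid plexus list only Tcn2, a vitamin B12 carrier, rose (1.09, adjusted p = 0.000295), and among 15 ion and water transporters only Fxyd1, a regulator of the sodium pump, did (1.17, adjusted p = 0.0150).

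In meninges the same genes were high in every sample. Ttr had the highest FPKM of all genes in each of the 10 samples, and the 10 members together took 2.45% to 7.74% of the counts, against 0.0189% to 0.469% in hippocampus. All 10 rose past the threshold in WT meninges against WT hippocampus, where 30.1% of the 15132 genes tested in both tissues were called higher, with log2 fold changes from 2.75 for Kl to 5.33 for Otx2 (median 4.86, against 0.12 over all genes). Slc4a5, which was below the filter in hippocampus, entered this fit through its level in meninges. Ttr was 39.2-fold higher (log2 5.29, SE 1.06, adjusted p = 0.000151). Values of the tissues did not overlap for any member in any group of mice, where 36.1%, 32.9% and 36.4% of all genes were higher without overlap in WT, untreated and light-treated mice. In untreated 5xFAD mice all 10 rose as well (25.4% of all genes), by 2.72 to 4.79 on the log2 scale, and in light-treated mice all 10 rose (26% of all genes), by 3.43 to 8.07.

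Genes of other lists were also called higher in WT meninges than in WT hippocampus, where 30.1% of all 15132 genes were. Called higher were 11 of 11 pineal genes (median 9.98), 15 of 15 leptomeningeal fibroblast genes (median 5.49) and 6 of 6 blood cell genes. Of the other choroid plexus genes 36 of 39 were called higher (median 4.04), and all 39 had a positive log2 fold change. For 9 of 10 oligodendrocyte genes the log2 fold change was negative. Otx2 is also expressed in the pineal gland, whose gene Crx ranged from 12.4 to 77.8 FPKM in meninges and was at most 0.10 FPKM in hippocampus. The part of pineal tissue in the Otx2 value was not tested.

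Within the meninges the members varied far less than in hippocampus. Ttr stood at 15349, 41237, 38074 and 38391 FPKM in WT, at 32997, 29862 and 25610.4 FPKM in untreated 5xFAD (replicates 1, 2 and 4) and at 31691, 28359 and 48525 FPKM in light-treated 5xFAD (replicates 1, 2 and 4), a 3.16-fold span. WT replicate 1 was the lowest and light-treated replicate 4 the highest. That sample also had the highest Enpp2, at 5000.4 FPKM where the others ran from 1394 to 2400.3 FPKM, and the highest Sostdc1, at 343 FPKM. Kl spanned 34.3 to 51.3 FPKM, Folr1 164 to 478 FPKM, Aqp1 45.5 to 109 FPKM, Prlr 31.7 to 88.0 FPKM, Otx2 37.7 to 105 FPKM, Clic6 14.4 to 40.4 FPKM and Slc4a5 7.29 to 15.8 FPKM.

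**Figure D4:**
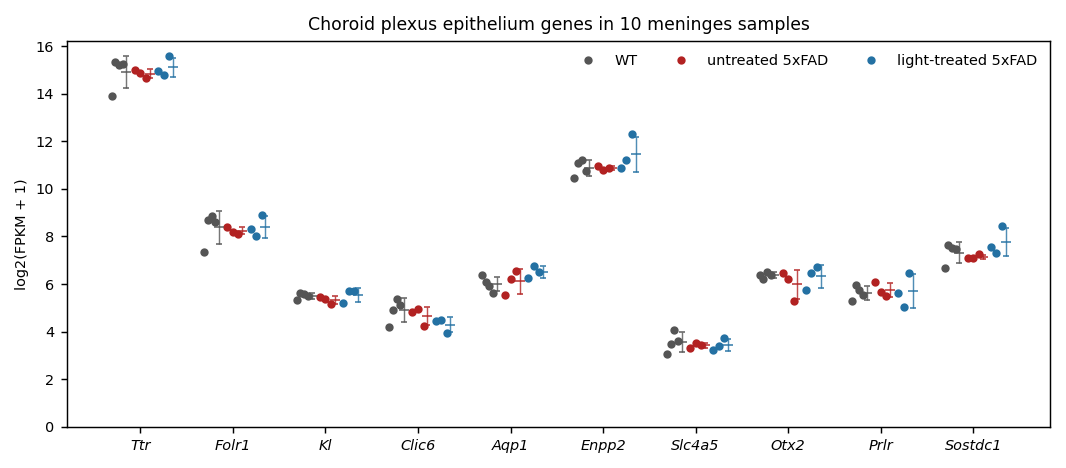
The 10 choroid plexus genes in the 10 meninges samples as log2(FPKM + 1), with 1 point for each sample and a bar for the mean ± SD of each group (n = 4 WT, 3 untreated and 3 light-treated 5xFAD). Groups overlap for every gene except Sostdc1 between light-treated and untreated 5xFAD samples.

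No member was called in meninges between any pair of groups by edgeR, DESeq2 or limma. Between untreated 5xFAD and WT, 0% of the 14318 tested genes were called, and no member had an unadjusted p under 0.05 (4.01% of all genes). Log2 fold changes ran from -0.26 for Clic6 to 0.39 for Prlr, with Ttr at -0.17 (SE 0.36). Between light-treated and untreated mice (0.014% of all genes called) they ran from -0.57 for Prlr to 0.72 for Sostdc1 (SE 0.34, adjusted p = 0.404), with Ttr at 0.31 (SE 0.39), and none had an unadjusted p under 0.05 (12.7% of all genes). Sostdc1 was the only member without overlap, at 185, 158 and 343 FPKM with light and 137, 135 and 151 FPKM without, where 10.1% of tested genes were higher in all light-treated samples. Between light-treated 5xFAD and WT (0.014% of all genes called) Clic6 alone had an unadjusted p under 0.05 (16.4% of all genes), at -0.68 (SE 0.29, adjusted p = 0.269), and Enpp2 stood highest at 0.70 (SE 0.34, adjusted p = 0.321). Directions of small differences depended on single samples here: without light-treated replicate 4, Ttr went from 0.31 to -0.01 against untreated mice and from 0.14 to -0.19 against WT.

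Across the 10 meninges samples, Folr1 tracked Ttr most closely of all 14317 genes compared, at r = 0.97 (permutation p 2e-05, adjusted 0.286) and rho = 0.95 (permutation p 0.00016, adjusted 0.458), with r = 0.91 without the 2 samples farthest from the median. Sostdc1 (r = 0.85, permutation p 0.00553), Prlr (0.70, 0.0277) and Slc4a5 (0.69, 0.0363) also had an unadjusted p under 0.05, which 2% of genes reached with a positive sign, and none of the 9 had an adjusted p under 0.05 (0% of genes did). Without the 2 farthest samples, Folr1 and Clic6 were the members under 0.05. Over these 8 samples r was 0.66 for Sostdc1, 0.55 for Prlr and 0.44 for Slc4a5, while Enpp2 went from 0.70 to 0.18 and Clic6 from 0.31 to 0.77. Aqp1 went the other way, at r = -0.30 (permutation p 0.409). The genes most like Ttr in meninges, members aside, were Ins2 (r = 0.932), Ltc4s (0.903), Dhrs7b (0.897), Ebpl (0.895), Ndufa1 (0.885), Mrps18c (0.882), Smc2 (0.874), Defb9 (0.868), Det1 (0.860) and Ccdc113 (0.859), with n = 10, none of them in the choroid plexus list.

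The light effect was then compared between tissues in a fit of both. The difference, meninges minus hippocampus, was positive for all 10 members, from 0.72 for Kl to 4.03 for Ttr (SE 1.40, adjusted p = 0.131), with a median of 2.38 against 0.06 over all genes. None was called by edgeR, where 0.971% of all genes were called, though 6 of 10 had an unadjusted p under 0.05 (19.8% of all genes). Of the 6, Slc4a5 was below the filter in hippocampus and entered this fit through its level in meninges. DESeq2 called 2, Ttr and Sostdc1. The 5xFAD effect gave no called member by either tool (1.69% of all genes by edgeR, none of 10 at an unadjusted p under 0.05, against 12.8% of all genes), with differences from -1.31 for Ttr to -0.04 for Kl.

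In mLECs most of the genes were at or near 0. Folr1, Slc4a5 and Otx2 were listed at 0 in all 10 samples, and Kl and Sostdc1 had at most 1 count in any sample. A count of 0 allows a share of up to 1.24e-05% to 2.11e-05% of a sample's counts (3 counts of the total). This limit covers counting error only, and reads amplified from few sorted cells are not independent molecules. Clic6 was above 1 FPKM in 1 sample, untreated 5xFAD replicate 1, at 2.97 FPKM, and Prlr in 1, WT replicate 2, at 26.2 FPKM (2199 counts).

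Ttr was scattered among the mLEC samples, at 0, 563, 24.8 and 7.56 FPKM in WT, at 83.0, 55.2 and 0 FPKM in untreated 5xFAD (replicates 1, 2 and 4) and at 96.8, 0.14 and 0 FPKM in light-treated 5xFAD (replicates 1 to 3). Presence and absence crossed all 3 groups. In WT replicate 2, the sample with the most Ttr, Folr1 was at 0, whereas in meninges Folr1 stood at 0.905% to 1.22% of the level of Ttr. The plexus genes Kcnj13 and Ecrg4 were at 0 in all 10 samples, whereas Calml4 was at 0 in 4 and reached 23.3 FPKM. Of the 39 other choroid plexus genes, 25 to 30 were at 0 in each sample.

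**Figure D5:**
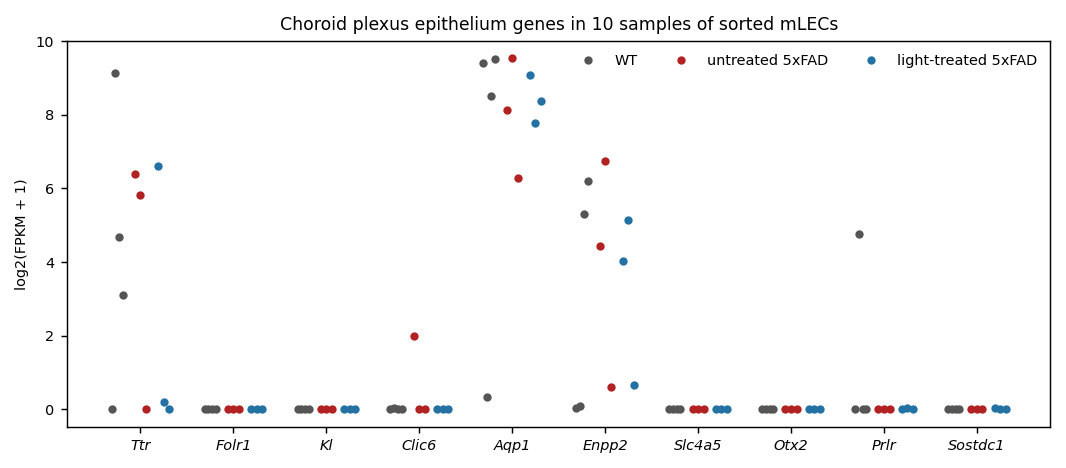
The 10 genes in the 10 samples of sorted mLECs as log2(FPKM + 1), with 1 point for each sample. Folr1, Kl, Slc4a5, Otx2 and Sostdc1 lie at or next to 0 in every sample, Ttr and Enpp2 are scattered in each group, and Aqp1 is high except in WT replicate 2 (0.26 FPKM).

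Aqp1 was the exception, at 673, 0.26, 365 and 733 FPKM in WT, 279, 742 and 76.4 FPKM in untreated and 538, 219 and 330.0 FPKM in light-treated mLECs. All samples but WT replicate 2 lay within or above the meninges range of 45.5 to 109 FPKM, although the tables of mLECs and tissues were normalised separately, and Aqp1 is known also from endothelial cells of blood vessels. WT replicate 2 stood apart. Its lymphatic marker Ccl21a was at 3.54 FPKM, although WT replicate 4 was at 0 for that gene with Aqp1 at 733 FPKM. Enpp2 ranged from 0.03 to 106 FPKM. Only these 3 genes, Ttr, Aqp1 and Enpp2, passed the filter in mLECs, and none was called between any groups by edgeR, DESeq2 or limma or had an unadjusted p under 0.05 by edgeR (0%, 0% and 0.0122% of 8188 genes were called, and 3.81%, 4.01% and 6.72% had an unadjusted p under 0.05, in untreated against WT, light-treated against untreated and light-treated against WT). The spread was wide: Ttr between light-treated and untreated mLECs gave a log2 fold change of -0.57 with an SE of 2.76. Leaving out single samples turned the sign of each of the 3 genes in untreated against WT and in light-treated against untreated mLECs. Without WT replicate 2, Ttr in untreated against WT mLECs went from -1.95 to 2.04.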

How the data were processed

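RNA-seq of 32 samples was analysed: 12 hippocampus, 10 meninges and 10 sorted mLECs, grouped by the labels as WT, untreated 5xFAD and light-treated 5xFAD. The authors deposited expected counts (estimated counts per gene from aligned reads, not normalised) and FPKM for 22337 genes in 1 table for hippocampus and meninges and another for mLECs, which were normalised separately. The study's methods name fastp and RSEM for Smart-seq2 libraries, while the submitters' processing notes name Trimmomatic, HISAT2, StringTie, DESeq2 and the build mm10, and which of these made the deposited counts is not settled here. Of the counts above 0, 81.6% to 89.6% were whole numbers, and counts were rounded before testing. The tables were joined by gene identifier, since 1 of them spells the Otx2 symbol in capitals. Gene positions came from GENCODE vM21.

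Counts were tested with edgeR (4.0.16, TMM, quasi-likelihood test, R 4.3.3), 3 groups in 1 fit per tissue, or 6 groups of hippocampus and meninges in 1 fit, for genes with at least 1 FPKM in at least 3 samples. A gene was called at a Benjamini-Hochberg adjusted p under 0.05 over all tested genes and at least 2-fold. DESeq2 (1.42.0) and limma (3.58.1, on log2 of FPKM plus 1 or 0.1) were alternatives, as were other scaling and filters, the groups compared only, a replicate block, no fold threshold and leaving out each replicate. Single genes were compared by an exact two-sided permutation test of log2(FPKM + 1). Correlations with Ttr used 100000 permutations, adjusted over all genes of the tissue and not over the pairs as first planned. Fits and correlations were tested on simulated data. Nothing in the sources ties samples to separate litters, so p-values measure the spread between these mice.

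The members, the gene lists and the tests were chosen with earlier results of these data known. Named genes were the 10 members, up to 4 called genes of a list by size of change, and the 10 other genes most like Ttr in each tissue.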

Additional observations from a re-analysis of the deposited data

Results flagged for a closer look

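Among 45 groups of 4 samples in which the lowest or highest value could be compared with the rest (Dixon's criterion, which chance alone meets in about 1 group of 20), 5 held a sample far from the others. In meninges and mLECs only WT has 4 samples, so only WT could be examined there. In meninges, WT replicate 1 was far below the other WT samples for Ttr, at 15349 FPKM (gap of 0.919 of the group's range), and for Folr1, at 164 FPKM (0.835). In mLECs, WT replicate 2 was far below the others for Aqp1, at 0.26 FPKM (0.891), and above them for Prlr, at 26.2 FPKM (1.0), and Clic6, at 0.02 FPKM (1.0), where the other WT samples were at 0 for both genes. With all others at 0, any value above 0 gives that ratio, and the Clic6 value is 1 count.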

How the results depend on the processing

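All 10 members were called higher in meninges than in hippocampus in each group of mice by edgeR, DESeq2 and limma and with the replicate block, and no direction turned there in 927 repeats. Calls between groups of mice changed in 3 places. DESeq2 called 2 members in light-treated against untreated hippocampus and 2 for the light effect between tissues, where edgeR called 0, and leaving out single replicates gave 0 to 1 called in untreated 5xFAD against WT hippocampus. In meninges, 2 members rather than 4 were related to Ttr at an unadjusted permutation p under 0.05 without the 2 samples farthest from its median. Over the 22 alternatives, Ttr in light-treated against untreated hippocampus ran from -4.21 to -1.75 on the log2 scale (adjusted p 0.0256 to 0.348 over edgeR, DESeq2 and limma). The cause of these changes was not tested.

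Of 2316 repeats of single log2 fold changes, 73 turned the direction, none of them of a called value. Leaving out single replicates moved, in hippocampus, Kl from -0.45 to 0.50 and Otx2 from -0.07 to 1.05 (untreated against WT), and Clic6 from -1.38 to 0.21 and Otx2 from -1.06 to 0.07 (light-treated against WT). In meninges, for untreated against WT, the ranges were -0.10 to 0.40 for Aqp1, -0.14 to 0.08 for Enpp2, -0.32 to 0.01 for Slc4a5 and -0.48 to 0.07 for Otx2. For light-treated against untreated they were -0.01 to 0.51 for Ttr, -0.14 to 0.46 for Folr1, -0.22 to 0.13 for Slc4a5 and -0.18 to 0.37 for Otx2. For light-treated against WT they were -0.19 to 0.34 for Ttr, -0.37 to 0.23 for Folr1, -0.09 to 0.16 for Kl, -0.38 to 0.02 for Slc4a5, -0.37 to 0.07 for Otx2 and -0.60 to 0.09 for Prlr. In mLECs the ranges were -2.67 to 2.04 for Ttr, -1.39 to 0.11 for Aqp1 and -1.60 to 2.46 for Enpp2 (untreated against WT), -9.01 to 0.15, -0.45 to 1.04 and -2.22 to 1.33 (light-treated against untreated), and -10.95 to 1.46 for Ttr and -1.34 to 1.31 for Enpp2 (light-treated against WT).

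Without the 3 hippocampus samples of highest Ttr, an alternative chosen after seeing the data, Sostdc1 stood at -0.04 (untreated against WT), Kl at 0.52 (light-treated against untreated), and Clic6 at 0.21 and Otx2 at 0.07 (light-treated against WT). Other settings turned values near 0 in meninges: Enpp2 to 0.02 (mean FPKM of at least 5) and 0.01 (limma, both pseudocounts), Slc4a5 to -0.02 (mean FPKM of at least 5), Folr1 to -0.02 (median-of-ratios scaling and DESeq2), -0.01 (mean FPKM of at least 5) and -0.0009 (only the groups compared), and Prlr to 0.07 (limma, both pseudocounts). In mLECs limma gave Aqp1 1.04 and 1.48, 0.43 and 0.43, and 1.47 and 1.92 in the 3 comparisons and Enpp2 0.37 and 1.38 in the last, and Aqp1 went to 0.06 without a filter and 0.02 at a mean FPKM of at least 5.

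Nothing in the labels says that samples of 1 number share a mouse, litter or batch, and hippocampus and meninges of 1 number may come from 1 mouse. Deviations of same-numbered samples correlated at -0.28 to 0.09 in hippocampus, -0.31 to 0.24 in meninges and -0.04 to 0.16 between these tissues (above 0.1 for 2 of 10 such pairs). With the number as a replicate block 0 members were called between groups and 10 between tissues, as without it. The block turned Enpp2 to 0.11 and Slc4a5 to 0.04 in untreated against WT meninges, Slc4a5 to -0.003 against untreated and 0.03 against WT with light, and Enpp2 to 1.40 in light-treated against WT mLECs.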
